A study of Mus musculus with 6 samples.

Results

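The 9 genes described here were grouped as fatty acid oxidation enzymes and targets of the nuclear receptor PPAR-alpha: Cpt1a, Cpt1c, Cpt2, Acadm, Acadl, Acadvl, Hadha, Hadhb and Ehhadh. Cpt1c is kept in the group although its protein has little catalytic activity. The 9 were picked by gene symbol and by no rule on measured values, although earlier results of these data were known. All 9 of 9 were found among the 31838 genes of the deposited table. All 9 also passed the filter on low counts, which left 20428 genes for testing. Polyadenylated RNA of the hippocampus was sequenced from wild type C57BL/6 mice at 4 months of age. The control group of 3 libraries received corn oil, and the treated group of 3 libraries received the plasticiser butyl benzyl phthalate (BBP) in a dose of 50 mg/kg/day. The title of the series links BBP to cognitive impairment, and the only comparison of the design is BBP against corn oil. Neither the number of mice behind a library nor the route and duration of dosing is stated in the labels. The p-values therefore cover library-to-library spread only, which may be technical.

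Mitochondria burn long-chain fatty acids in a fixed order of steps. CPT1 couples the fatty acid to carnitine at the outer membrane, CPT2 releases it again inside, and chain-length-specific acyl-CoA dehydrogenases then start each round of beta-oxidation. The trifunctional protein, built from the HADHA and HADHB subunits, completes the round for long chains, while peroxisomes shorten very long and branched chains and dicarboxylic acids with enzymes of their own, EHHADH among them. PPAR-alpha is a lipid-activated receptor that binds DNA with its partner RXR at direct repeats of the half-site AGGTCA, and in rodent liver it drives many of these genes. Monoester metabolites of phthalates are known to activate PPARs. Brain tissue oxidises little fatty acid compared with liver or heart, and most of that oxidation is attributed to astrocytes.

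Promoter sequences are shown because the grouping of these genes rests on a receptor that binds DNA, and because Hadha and Hadhb face away from each other across a short gap. Windows of 300 bases, from 250 before to 50 after each gene's start, were taken from RefSeq (GRCm38.p6), and 9 of 9 genes were matched. On either strand, the half-site AGGTCA was found in 4 of the 9 windows (Cpt1a, Cpt1c, Acadm and Acadvl), and in 16.3% of all 32851 promoter windows of that table. The direct repeat, AGGTCA written again in the same direction after 1 base of any kind, was in none of the 9 windows and in 0.0396% of all windows. The longer half-site TCAAGGTCA, which overlaps AGGTCA, was in none of the 9 and in 0.423% of all. The GC box GGGCGG was in 7 of the 9 windows and in 35.7% of all, and CCAAT was in 3 of the 9 and in 37.4% of all. These matches describe the letters of the windows only. The sites are written below 5′ to 3′ along the strand of the gene, with the half-site, or its reverse complement, in capitals.
Cpt1a, chr19:3323187-3323232, plus strand: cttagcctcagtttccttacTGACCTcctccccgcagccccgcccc
Cpt1c, chr7:44974972-44975017, minus strand: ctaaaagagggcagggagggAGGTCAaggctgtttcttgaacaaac
Acadm, chr3:153944867-153944893, minus strand: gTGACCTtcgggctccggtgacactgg
Acadvl, chr11:70015490-70015535, minus strand: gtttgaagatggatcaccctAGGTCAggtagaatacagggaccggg
The Cpt1a site lies between the most upstream annotated exons of the gene, inside its span, and the other 3 lie outside the spans of their genes. None of the 4 windows overlapped an exon of GENCODE M21. Hadha (minus strand) and Hadhb (plus strand) start 86 bases apart in the deposited table, and the 85 bases between both spans, 69.4% of them G or C, read as follows on the plus strand, with GC boxes in capitals.
Hadha to Hadhb, chr5:30155163-30155247: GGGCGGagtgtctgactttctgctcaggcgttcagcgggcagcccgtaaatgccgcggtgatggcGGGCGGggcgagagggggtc

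None of the 9 genes differed between BBP and corn oil beyond the test over all genes, and Cpt1a, the gene for the liver-type, rate-controlling CPT1, came nearest. Its FPKM, the deposited expression level normalised for gene length and library size, was higher in each BBP library than in any corn oil library. The other 8 genes had overlapping groups. Over the 9, the log2 fold change (BBP over corn oil) was positive for 6 and negative for 3, with a median of 0.02, beside a median of 0.01 and 52.4% positive over all tested genes. In edgeR's quasi-likelihood test 0 of 9 had a Benjamini-Hochberg adjusted p under 0.05, where 0.0% of all tested genes did. At an unadjusted p under 0.05 there was 1 of 9, against 3.35% of all tested genes. DESeq2 called 0 of 9 at the adjusted threshold, against 0.0196% of its 20418 genes (4 genes), and 1 of 9 at an unadjusted p under 0.05, against 3.87%. The sign was the same in every alternative fit for Cpt1a, Cpt2 and Hadhb, and it changed in at least 1 fit for each of the other 6.

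**Figure D1:**
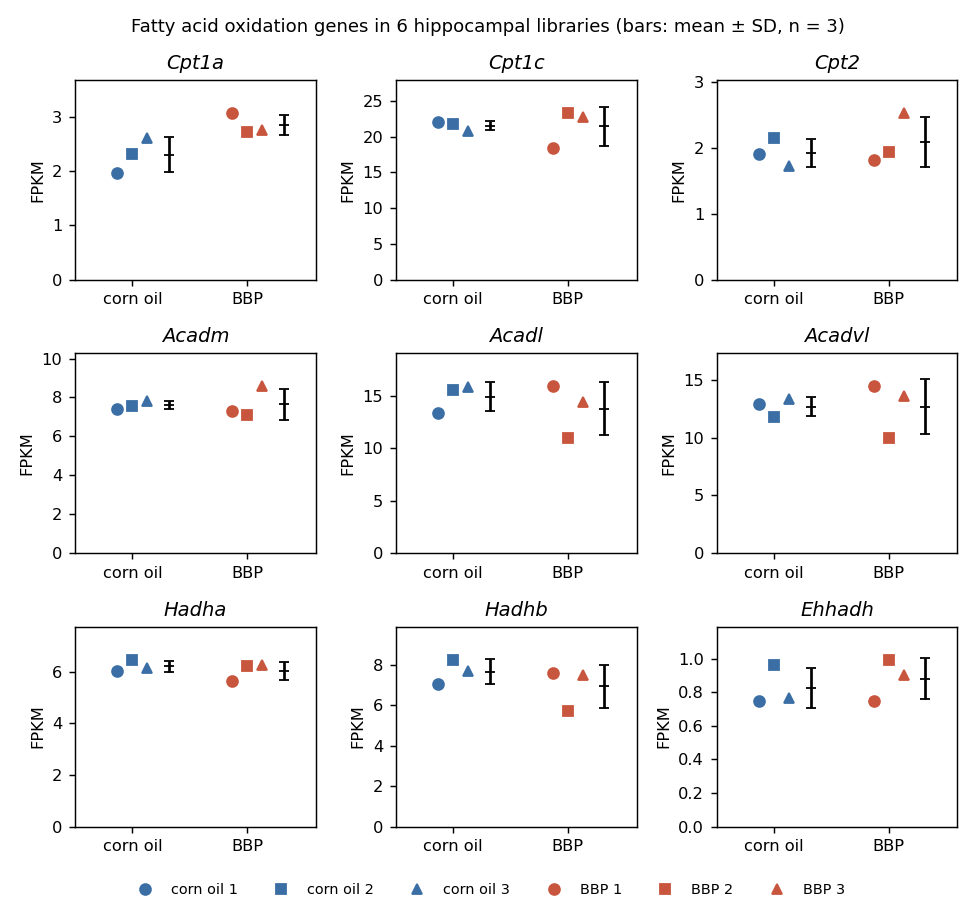
FPKM of each of the 9 genes (vertical axes, starting at 0) in the 3 corn oil and the 3 BBP libraries; symbols mark the replicate number and bars the mean ± SD. Only in the Cpt1a panel do all BBP points lie above all corn oil points.

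The carnitine shuttle is represented by 3 members. Cpt1a stood at 1.97, 2.32 and 2.61 FPKM in corn oil libraries 1 to 3 and at 3.07, 2.73 and 2.75 in BBP libraries 1 to 3. The groups did not overlap, which was also the case for 9.65% of all tested genes, with BBP above corn oil in 4.4%. The corn oil libraries spread more widely than the BBP libraries, with 2.30 ± 0.324 (SD, n = 3) against 2.85 ± 0.190. The log2 fold change was 0.33 ± 0.13 (SE, edgeR), or 1.26-fold with a 95% interval from 1.03 to 1.54, and the unadjusted p of 0.0297 became 0.953 after adjustment. Without corn oil library 1, the lowest of all, the log2 fold change was 0.23 (edgeR, unadjusted p = 0.117), and with BBP libraries 1 and 2 both left out it was 0.23 (edgeR, unadjusted p = 0.217). The unadjusted p was also above 0.05 without corn oil library 2 (0.0701), BBP library 1 (0.0684) or BBP library 2 (0.0537), and the adjusted p was 0.657 or higher in all 16 alternative fits of edgeR, DESeq2 and limma.

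Cpt1c encodes the brain form of CPT1, which sits at the endoplasmic reticulum of neurons, has little catalytic activity and is known for its part in energy sensing and AMPA receptor traffic. It was the most abundant of the 9 at 22.1, 21.8 and 20.8 FPKM in corn oil and 18.4, 23.3 and 22.7 in BBP. BBP library 1 was the lowest and the other BBP libraries were the highest, so the corn oil values lay inside the BBP range. Its log2 fold change was 0.02 ± 0.12 (SE, edgeR adjusted p = 0.991), with an interval from 0.841-fold to 1.22-fold. The ratio of Cpt1c to Cpt1a was 11.2, 9.40 and 7.97 in corn oil libraries 1 to 3 and 5.99, 8.55 and 8.25 in BBP libraries 1 to 3, overlapping between the groups. Cpt2, the inner-membrane partner, was at 1.899, 2.14 and 1.72 FPKM in corn oil and at 1.81, 1.93 and 2.52 in BBP. BBP library 3 alone lay above the corn oil range, and the log2 fold change was 0.14 ± 0.18 (SE, edgeR adjusted p = 0.954). It was 0.0086 without BBP library 3, 0.067 without corn oil library 3, 0.22 without corn oil library 2 and 0.24 without BBP library 1.

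The 3 acyl-CoA dehydrogenases differ in the chain length they accept. Acadm, the medium-chain enzyme, varied little, at 7.43, 7.56 and 7.83 FPKM in corn oil and 7.29, 7.12 and 8.57 in BBP. All of the corn oil values lay between the BBP values, and the interval of its fold change, from 0.882 to 1.18, was among the narrowest of the 9. Acadl, the long-chain enzyme, was at 13.4, 15.6 and 15.8 FPKM in corn oil and 15.9, 11.0 and 14.4 in BBP. Its lowest and its highest value were both in BBP libraries, BBP library 2 and BBP library 1. Acadvl, the membrane-bound very-long-chain enzyme, showed the same arrangement, at 12.9, 11.8 and 13.3 FPKM in corn oil and 14.4, 10.002 and 13.6 in BBP. Their log2 fold changes were 0.03 ± 0.09 (Acadm), -0.10 ± 0.13 (Acadl) and 0.02 ± 0.12 (Acadvl), each ± SE, with edgeR adjusted p from 0.954 to 0.993. Without BBP library 2, that of Acadl was 0.0046, so its negative sign rested on that library.

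The subunits of the trifunctional protein did not keep a constant ratio. Hadha, the subunit with hydratase and dehydrogenase activity, had the smallest coefficient of variation of the 9 over all libraries (4.45%), at 6.05, 6.46 and 6.14 FPKM in corn oil and 5.65, 6.23 and 6.24 in BBP. Hadhb, the thiolase subunit, was at 7.06, 8.25 and 7.73 FPKM in corn oil and 7.61, 5.72 and 7.53 in BBP. BBP library 2 was the only library in which the FPKM of Hadha exceeded that of Hadhb, with a ratio of 1.09, while the ratio was 0.742 to 0.857 in the others. The log2 fold changes were -0.02 ± 0.09 for Hadha and -0.13 ± 0.11 for Hadhb (SE, edgeR adjusted p = 0.989 and 0.953). Without BBP library 2 the log2 fold change of Hadhb was -0.037, and without corn oil library 2 it was -0.070. The fold change of Hadhb had a 95% interval from 0.771 to 1.09, and that of Hadha from 0.857 to 1.14. The genes lie on either side of the 85 bases printed above, and the log2 CPM (count scaled to the library's TMM-corrected size) of Hadha and Hadhb had a Pearson correlation of -0.37 over the 6 libraries, a description of libraries that share tissue and processing.

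Ehhadh, the peroxisomal bifunctional enzyme and one of the genes that PPAR-alpha agonists raise most in rodent liver, was the lowest of the 9. It stood at 0.751, 0.965 and 0.767 FPKM in corn oil and 0.750, 0.993 and 0.901 in BBP. The lowest and highest values were both in BBP libraries, and corn oil library 2 lay close to the highest. Its deposited counts were 158 to 208 per library, which would be 39.5 to 52.0 fragments if 4 deposited counts stand for 1 fragment, an assumption read from the low counts. The log2 fold change was 0.11 ± 0.22 (SE, edgeR adjusted p = 0.971) and its interval, from 0.764-fold to 1.53-fold, was the widest in the group on the log2 scale.

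**Figure D2:**
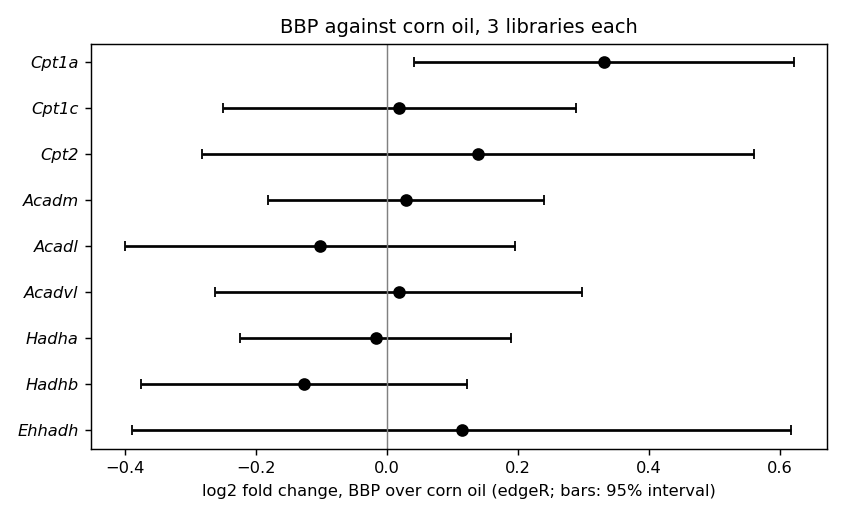
Log2 fold change of BBP over corn oil for each gene (horizontal axis), from edgeR, with 95% intervals. The interval of Cpt1a lies to the right of 0, from 0.04 to 0.62, before any adjustment for the number of genes tested, and the other 8 intervals cross 0.

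Mitochondrial and peroxisomal steps were compared within each library, as values with no test. The summed FPKM of the 7 mitochondrial enzymes (all members except Cpt1c and Ehhadh) was 50.7, 54.0 and 55.2 in corn oil and 55.7, 44.7 and 55.6 in BBP. It was 67.5, 56.0 and 71.9 times the FPKM of Ehhadh in corn oil and 74.3, 45.0 and 61.7 times in BBP. On the log2 scale the corn oil ratio was 6.02 ± 0.19 and the BBP ratio 5.88 ± 0.37 (SD, n = 3 each), a difference of -0.13 that is smaller than the spread within BBP. BBP library 2 had both the lowest mitochondrial sum and the highest Ehhadh, and without it the difference was 0.06. With wider lists, 29 genes of the mitochondrial route, 5 acyl-CoA synthetase genes included, summed to 217 to 258 FPKM and 21 peroxisomal genes to 177 to 198, so that the ratio was 1.23 to 1.33 in all 6 libraries. Its mean was 1.28 in both groups, with an SD (n = 3) of 0.00815 for corn oil and 0.0515 for BBP. Without the synthetase genes, a choice made after the data were seen, 24 genes summed to 134 to 172 FPKM and the ratio was 0.757 to 0.881, so its side of 1 changed with those genes. The size of each ratio also depends on how many genes each list holds and on the gene length behind FPKM, described below. These sums were not rescaled to another length.

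**Figure D3:**
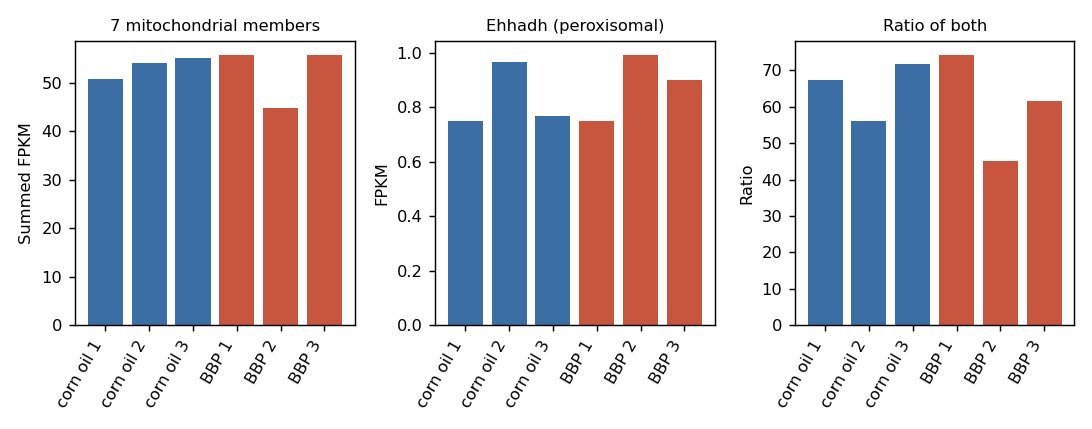
Summed FPKM of the 7 mitochondrial members, FPKM of Ehhadh and the ratio of both (vertical axes, starting at 0) in each library, corn oil in blue and BBP in red. BBP library 2 has the smallest sum, 44.7, and the smallest ratio, 45.0.

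Several other genes of peroxisomal oxidation were more abundant than Ehhadh, although Acox2, Acaa1b and Hacl1, named after their values were seen, averaged 0.0252, 0.315 and 0.849 FPKM. Hsd17b4, named here after its values were seen because it encodes the other peroxisomal bifunctional enzyme, had means of 13.4 (corn oil) and 12.8 FPKM (BBP). Phyh, which starts the breakdown of phytanic acid, averaged 32.4 and 33.4 FPKM, and the lipid carrier gene Scp2 24.4 and 22.8. Of 20 further peroxisomal genes, 19 were tested, 0 passed edgeR's adjusted threshold, and 7 had a positive and 12 a negative log2 fold change with a median of -0.02. The smallest unadjusted p among them belonged to Acot8, a peroxisomal thioesterase gene, to the fatty acyl transporter gene Abcd3 and to Amacr, the racemase for branched chains, with log2 fold changes of -0.29, -0.20 and -0.22 (edgeR adjusted p = 0.953 for each).

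A list of 22 further genes, for mitochondrial enzymes and carriers and for 5 acyl-CoA synthetases that supply them and are not all mitochondrial, was tested in full, and again 0 passed. Their log2 fold changes were positive for 7 and negative for 15, with a median of -0.02. Acsl3, which activates long-chain fatty acids at the endoplasmic reticulum and lipid droplets rather than in mitochondria, was at 34.2, 36.0 and 32.9 FPKM in corn oil and at 41.0, 41.0 and 40.1 in BBP. Its groups did not overlap, as for 9.65% of all tested genes, with BBP above corn oil in 4.4%. The log2 fold change was 0.27 ± 0.08 (SE, edgeR unadjusted p = 0.0121, adjusted p = 0.953), and this p was the smallest of the 22. Etfb, a subunit of the flavoprotein that takes electrons from the acyl-CoA dehydrogenases, had group means of 24.1 ± 2.26 (corn oil) and 19.8 ± 4.58 FPKM (BBP; SD, n = 3). Acad9, a complex I assembly factor related to Acadvl, had means of 5.08 ± 0.142 and 4.56 ± 0.348 FPKM, with every BBP library below corn oil, as for 5.25% of all tested genes. Acsl6, the neuronal acyl-CoA synthetase, averaged 18.2 and 19.2 FPKM.

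Of the PPAR genes, Ppara and Pparg were below 1 FPKM on average and Ppard was above it. Ppara was at 0.0344, 0.0872 and 0.144 FPKM in corn oil and 0.0877, 0.0924 and 0.180 in BBP, with 10 to 52 deposited counts per library. At this level its log2 fold change of 0.45 ± 0.57 (SE, edgeR adjusted p = 0.954) left an interval from 0.55-fold to 3.37-fold. Ppard, the form that is common in brain, was at 1.896, 2.42 and 1.89 FPKM in corn oil and 2.83, 2.82 and 2.25 in BBP, with overlapping groups (log2 fold change 0.37 ± 0.16, edgeR unadjusted p = 0.0447, adjusted p = 0.953). Pparg, known from fat tissue, was at 0.333 to 0.488 FPKM in corn oil, at 0.444 and 0.581 in BBP libraries 2 and 3 and at 1.28 in BBP library 1 (log2 fold change 0.93 ± 0.39, edgeR unadjusted p = 0.0435, adjusted p = 0.953). The partner genes Rxrb and Rxra averaged 14.0 and 5.14 FPKM over all libraries, and the coactivator genes Ppargc1a and Ppargc1b 4.62 and 0.303. Of the 8 receptor and coactivator genes 0 passed the adjusted threshold, 2 had an unadjusted p under 0.05, both higher in BBP, where 1.98% of all tested genes did, and 6 were positive with a median of 0.23.

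Further genes known as PPAR-alpha targets outside beta-oxidation were 18, of which 15 were analysed and 13 were tested. Cyp4a10, Cyp4a14 and Fabp1 were not found under these symbols in the deposited table, and Fgf21 and Vnn1 did not pass the filter on low counts. Of the 13 tested genes none passed, 7 were positive and 6 negative, and the median log2 fold change was 0.02. Pdk4, the kinase that turns off pyruvate dehydrogenase, was at 1.98, 2.22 and 2.02 FPKM in corn oil and 2.34, 2.17 and 3.97 in BBP, with BBP library 3 far above the rest and BBP library 2 inside the corn oil range (log2 fold change 0.46 ± 0.22, edgeR adjusted p = 0.953). Cd36, the fatty acid uptake receptor, was listed at 0.274 to 0.368 FPKM in corn oil and 0.0622 to 0.259 in BBP (log2 fold change -1.09 ± 0.45, edgeR unadjusted p = 0.0394, adjusted p = 0.953). Its BBP libraries all lay below corn oil, as for 5.25% of all tested genes. The thioesterase gene Acot2 averaged 4.04 and 3.56 FPKM. The desaturase gene Fads2 averaged 46.0 in both groups, the transporter gene Slc27a1 17.0 and 16.6, and the malonyl-CoA decarboxylase gene Mlycd 7.09 and 7.08.

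The order of the levels depended on the length used. The deposited FPKM divides by the union of all annotated exons of a gene. The ratio of count to FPKM was scaled on 1363 genes with a single transcript, so their median match to transcript length was fixed by construction. Their 5th to 95th percentile was 0.9997 to 1.001 times that length. For 11006 genes with several transcripts the implied length was 1.00 times the union of their exons but 1.31 times their longest transcript (medians). For Hadhb the implied length was 3.22 times the longest coding transcript, for Hadha 2.17 times, for Cpt1c 2.01 times, for Acadm 1.92 times and for Cpt1a 1.77 times. For Ehhadh, Cpt2 and Acadl it was 1.00, 1.01 and 1.05 times. FPKM thus understates the level of Hadhb most if its fragments come from the coding transcript, which the table does not show.

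By deposited FPKM, averaged over the 6 libraries, Cpt1c led at 21.5 ± 1.76 (SD), followed by Acadl at 14.3 ± 1.92, Acadvl at 12.7 ± 1.57, Acadm at 7.63 ± 0.518, Hadhb at 7.32 ± 0.870, Hadha at 6.13 ± 0.273, Cpt1a at 2.57 ± 0.384, Cpt2 at 2.00 ± 0.291 and Ehhadh at 0.855 ± 0.112. Rescaled to the longest coding transcript, Hadhb moved from the fifth to the second place, at 23.6 ± 2.80, behind Cpt1c at 43.2 ± 3.53. Acadvl, Acadl, Acadm and Hadha then lay close together, at 15.7 ± 1.94, 15.0 ± 2.01, 14.6 ± 0.988 and 13.3 ± 0.593, and the first 3 of these did not differ beyond their spread, while Hadha lay below Acadm in every library. Cpt1a at 4.56 ± 0.680, Cpt2 at 2.03 ± 0.294 and Ehhadh at 0.857 ± 0.113 kept the last places under both lengths. The ratio of Hadhb to Hadha became 1.36 to 2.00, lowest in BBP library 2. Comparisons of a gene between libraries are not touched by this choice of length.

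**Figure D4:**
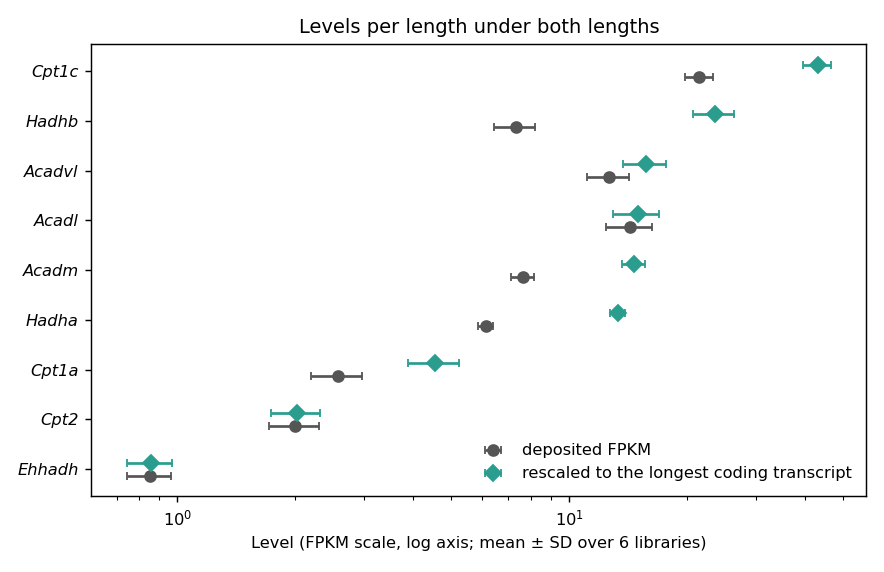
Mean level ± SD over the 6 libraries (horizontal log axis, FPKM scale) as deposited (grey circles) and rescaled to the longest coding transcript (green diamonds). Hadhb moves from 7.32 to 23.6, and Ehhadh is at 0.855 and 0.857.

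Within the group of 9, the libraries that stood out were BBP libraries 1 and 2. BBP library 1 held the lowest log2 CPM of 4 members and the highest of 3, and BBP library 2 the lowest of 3 and the highest of 3. Among all tested genes BBP library 1 was lowest for 20.3% and highest for 22.1%, and BBP library 2 for 26.5% and 24.9%. In BBP library 2, relative to the corn oil mean, Acadl stood at -0.34, Hadhb at -0.32 and Acadvl at -0.24 on the log2 CPM scale, while Ehhadh stood at 0.36, Cpt1a at 0.36, Cpt1c at 0.21, Cpt2 at 0.11 and Hadha at 0.10. In this library, members whose longest coding transcript is 2.17 kb or shorter were below 0 (Acadl, Hadhb and Acadvl) or at 0.00 (Acadm). The 5 longer ones, from 2.37 kb, were above 0, a split placed after the values were seen. The other BBP libraries did not show this split. In BBP library 3 the shorter members, by increasing length, stood at -0.07, 0.14, -0.05 and 0.08. The longer ones stood at 0.37, 0.05, 0.10, -0.02 and 0.24. In BBP library 1 the shorter members stood at 0.09, -0.07, -0.02 and 0.18. The longer ones stood there at -0.09, -0.24, -0.14, -0.14 and 0.42. Over all tested coding genes the median in BBP library 2 was -0.22 for the 820 genes under 1 kb, -0.08 from 1 to 2 kb, -0.01 from 2 to 3 kb, 0.02 from 3 to 5 kb and 0.05 above 5 kb. BBP library 3 had a like order, from -0.17 under 1 kb to 0.09 above 5 kb, whereas BBP library 1 stayed between 0.00 and 0.02. Corn oil library 3 ran the other way, from 0.07 under 1 kb to -0.03 above 5 kb. Corn oil libraries 1 and 2 each went from -0.03 under 1 kb to 0.02 above 5 kb. These length classes were chosen after the data were seen, and the part of length in the members' values was not tested.

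**Figure D5:**
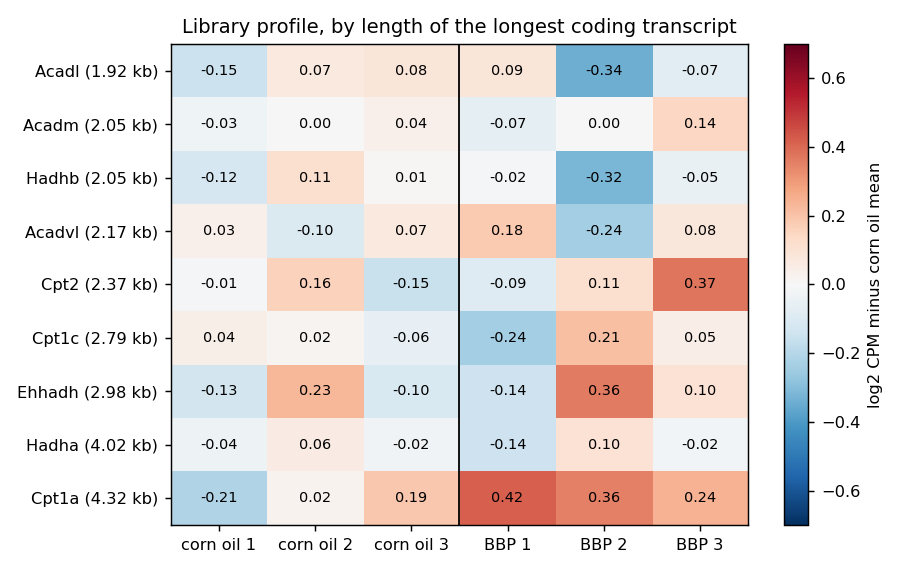
Log2 CPM minus the corn oil mean for each member (rows, ordered by the length of the longest coding transcript) in each library (columns); red is above and blue below. In BBP library 2 Acadl, at the top, is at -0.34 and Cpt1a, at the bottom, at 0.36. The values do not rise steadily with length: Ehhadh is also at 0.36 and the longer Hadha at 0.10.

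Cell makeup and dissection also varied among these libraries, and in bulk tissue fewer cells of a type and less RNA per cell cannot be told apart. Hippocampal field markers were present, with 11 of 12 analysed and a summed level of 153 to 186 FPKM (corn oil) and 106 to 185 FPKM (BBP), the lowest in BBP library 1. In that library, the sum of 10 striatum markers was 186 FPKM, against 44.5 to 91.4 in the others, and that of 10 isocortex markers was 178 against 77.0 to 106. Astrocyte markers, with 12 of 12 tested and 11 positive (52.4% over all tested genes), summed to 559 to 590 FPKM (corn oil) and 593 to 632 FPKM (BBP), without overlap. Aldoc alone averaged 236 FPKM over all libraries. The median log2 CPM of the 12 relative to the corn oil mean did overlap, at -0.06, 0.06 and -0.002 in corn oil and 0.02, 0.17 and 0.12 in BBP. Only 1 of the 12 had every BBP library above corn oil. Oligodendrocyte markers, 12 of 12 positive, summed to 583 to 802 and 650 to 945. The 12 neuronal markers summed to 1517 to 1582 and 1453 to 1575, the 12 microglial ones to 152 to 165 and 151 to 173, and the 12 endothelial and mural ones to 90.6 to 99.8 and 88.5 to 111. Of the endothelial and mural markers 11 were positive and 1 negative. In 4 of these 12 every BBP library lay above corn oil, as for 4.4% of all tested genes. Their median log2 CPM relative to the corn oil mean did not overlap, at -0.07, 0.02 and 0.07 in corn oil and 0.27, 0.12 and 0.10 in BBP. The 10 choroid plexus markers summed to 103 to 399 FPKM in the controls and 73.6 to 84.7 in treated libraries. Ttr made up most of each sum, at 81.4, 115 and 366 FPKM in corn oil and 51.5, 44.5 and 58.5 in BBP. Of the 10 markers, 9 had a negative log2 fold change. Their median log2 CPM relative to the corn oil mean overlapped, at -0.57, -0.13 and 0.55 in corn oil and -0.84, -0.04 and -0.55 in BBP. The most abundant genes of these lists included Wfs1 (hippocampal fields), Penk (striatum), Lamp5 (isocortex), Aldoc (astrocytes), Mbp (oligodendrocytes), Snap25 (neurons), Vtn (endothelial and mural) and Ttr (choroid plexus). No marker on these lists was at 0 in every library. The part of these differences in the level of Cpt1a was not tested. The 13 mitochondrially encoded mRNAs had a median of 0.74 (log2 CPM relative to corn oil) in BBP library 2 and of -0.12 to -0.02 in the other BBP libraries, and leaving the mitochondrial genes out of the fit gave Cpt1a a log2 fold change of 0.32.

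Neighbouring genes can add fragments to a member, because the libraries were made with a strand-marking (dUTP) protocol but the strand setting of the counting is not given in the sources used here. Acadvl (chromosome 11, 70010183 to 70015411, minus strand) overlaps Dvl2, a Wnt signalling gene on the other strand, by 2119 bases. Dvl2 was at 4.46 to 4.68 FPKM in corn oil and 3.79 to 4.31 in BBP, at its lowest in BBP library 1, where Acadvl was at its highest. Hadha (chromosome 5, 30118304 to 30155162) overlaps Garem2 by 75 bases, and Cpt1c (chromosome 7, 44959372 to 44974775) overlaps the noncoding 6530437J22Rik, which was at 0.131 FPKM or less. Acadl (chromosome 1, 66830839 to 66863277) contains the predicted gene Gm15793, at 0.452 FPKM or less. For Cpt1a (chromosome 19, 3322334 to 3385733), Cpt2 (chromosome 4, 107903981 to 107923610), Acadm (chromosome 3, 153922357 to 153944632) and Ehhadh (chromosome 16, 21761287 to 21787807) no overlapping gene and no gene starting within 1 kb was found in the table (mm10). The other neighbours of Hadhb (chromosome 5, 30155248 to 30184593) and Acadvl were the microRNA genes Mir1960 and Mir324.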

How the data were processed

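RNA-seq libraries of mouse hippocampus (3 corn oil, 3 BBP) were grouped by the labelled treatment, and none was left out. Per the submitters' processing notes, mm10, StringTie 2.1.6, HISAT2 2.2.1, cutadapt 1.9, edgeR, UMI-tools and DESeq2 were named, without their roles. Per the file headers, the authors deposited estimated counts and FPKM for each gene and library. The estimated counts were whole numbers, summing to 62477604 to 68422361 per library, in which a count of 4 was more frequent than 3 or 5. Among the members, Ehhadh had the lowest counts and the largest standard error.

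Counts were tested with edgeR 4.0.16 in R 4.3.3 (TMM scaling, the filterByExpr filter, the quasi-likelihood test with no covariate, and Benjamini-Hochberg adjustment over all tested genes at 0.05). Standard errors were derived by dividing the size of each log2 fold change by the root of its F statistic, and 95% intervals use the t distribution. Alternatives were DESeq2 1.42.0, limma 3.58.1 on log2(FPKM + 1) or log2(FPKM + 0.1), other size factors and filters, a replicate block and fits without each library, and the scripts were tested on simulated data. Log2 CPM used a prior count of 2. Lengths came from GENCODE M21, which holds 31739 of the 31838 gene IDs. Genes named beside the members were the 3 with the smallest p and the 3 with the highest FPKM of each pathway list, Ppara, the most abundant gene of each marker list, genes overlapping a member or starting within 1 kb of it, and for likeness the 3 best correlated. Some genes that this rule names are not reported here. The members and lists were chosen with earlier results of these data known. Figures were drawn with matplotlib 3.10.9.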

Additional observations from a re-analysis of the deposited data

How the results depend on the processing

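No member passed an adjusted p of 0.05 in any of the 16 alternative fits (14 for Ehhadh, whose mean FPKM is under 1). Cpt1a stayed positive in all 16, from 0.23 to 0.43, with an unadjusted p under 0.05 in 7. Genes called over the whole table were 0 in edgeR (685 at an unadjusted p under 0.05), 4 in DESeq2 (790), 0 in limma (396 on log2(FPKM + 1)), 0 to 3 with 1 library left out (1 when corn oil library 2 was dropped, 3 when BBP library 1 was dropped) (393 to 1530 unadjusted) and 10 with BBP libraries 1 and 2 both left out, a fit added after the data were seen that assumes the lone BBP library varies like the others. Counts divided by 4, also added then, called 0. Small fold changes turned in sign: in the 3 limma fits Cpt1c was at -0.014, -0.015 and -0.014 and Acadvl at -0.012, -0.014 and -0.012 on the log2 scale. With 1 library left out, Cpt2 ranged from 0.0086 to 0.24, Hadhb from -0.18 to -0.037, Cpt1c from -0.088 to 0.13, Acadm from -0.031 to 0.076, Acadl from -0.20 to 0.0046, Acadvl from -0.071 to 0.13, Hadha from -0.080 to 0.043 and Ehhadh from -0.024 to 0.24. The cause was not tested. The difference in the mitochondrial to peroxisomal ratio ranged from -0.30 to 0.06 over these fits and was 0.01 with the wider lists and -0.07 with those lists less the acyl-CoA synthetase genes, added after the data were seen. With a replicate block, 0 genes and 0 members were called (494 genes at an unadjusted p under 0.05). Cpt1a then had a log2 fold change of 0.34 (edgeR unadjusted p = 0.0579). Deviations from the group means had an r across genes of -0.08, 0.08 and -0.10 between same-numbered libraries. Only corn oil library 2 and BBP library 2 correlated best with their own number. With 3 libraries per group, these values cannot decide whether same-numbered libraries share a pairing or batch.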

Other observations

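By the fixed rule, the genes whose log2 CPM most resembled the mean profile of the 7 mitochondrial members over the 6 libraries included Gm14388 and Zfp942, and those most like Ehhadh were Csf1, Fastkd5 and Gm5881. Likeness was the Pearson correlation over 6 libraries, highest among 13226 genes for the former and 13233 for the latter, where 41 and 110 genes exceeded 0.9. With so many genes and 6 libraries that share depth and dissection, such values are a description only. Csf1, the gene for a microglial growth factor, was at 3.63, 4.53 and 3.71 FPKM in corn oil and at 3.51, 5.05 and 4.33 in BBP, highest and lowest in the same libraries as Ehhadh.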
